A study of Mus musculus with 768 samples.

Results

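The genes described here are 34 genes of the basement membrane and the extracellular matrix, chosen by gene symbol, and all 34 were found among the 32679 genes of the count table. Their transcripts were counted in single cells sorted for the Nestin:GFP reporter, in which regulatory sequence of the intermediate filament gene Nes drives green fluorescent protein, from the dentate gyrus of male Nestin:GFP mice aged 2 months. The miR-132 group was 4 mice (numbers 2, 4, 6 and 8) given a miR-132 mimic, and the Control group was 4 mice (numbers 1, 3, 5 and 7) given a control oligonucleotide. Every mouse received 150 pmol in 3 µl with lipofectamine 2000, once a week for 5 weeks. Sorting took place on 2 dates, 17 April 2018 for the lower 4 mouse numbers and 19 April 2018 for the others, and the plan was 94 cells per mouse. The title of the series names Alzheimer's disease, and the design text puts an unexplained "AD" before the tissue, while the labels give no disease allele or agent for any of the 8 mice. A Nes reporter also labels cells other than stem cells, so the sorted cells are a mixture.

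Basement membranes are thin sheets of matrix that coat blood vessels and separate them from the brain tissue. Laminins, trimers of an alpha, a beta and a gamma chain, assemble on the cell surface, collagen IV forms a further network, and nidogens and heparan sulfate proteoglycans such as perlecan and agrin tie the networks together. Brain vessels carry membranes laid down by endothelial cells, by mural cells and by astrocytes, while fibroblasts around larger vessels and in the meninges make fibrillar collagens. The matrix between brain cells is of another kind, built on hyaluronan with lecticans (versican, brevican, neurocan), link proteins and tenascins.

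Of 768 wells, 675 had at least 50000 counts and 1000 genes and were kept. Each mouse gave 75 to 92 such wells, the median well held 646537 counts, and a mouse's kept wells summed to 43889169 to 66897586 counts. Clustering without the 34 genes, and naming by markers outside them, put 43.9% of kept wells in an oligodendrocyte-like class, 15.9% in an endothelial-like, 14.1% in an astrocyte-like and 10.5% in a pericyte-like class. Smaller classes were neuroblast-like (38 wells), oligodendrocyte precursor-like (18 wells), smooth muscle-like (13 wells) and fibroblast-like (16 wells). Of the naming markers Cldn5 had a count in 100% of endothelial-like wells, Rgs5 in 100% of pericyte-like, Acta2 in 100% of smooth muscle-like and Slc6a13 in 100% of fibroblast-like wells. Rgs5 also had a count in 100% of smooth muscle-like wells, at 7800 CPM against 6338 CPM in pericyte-like wells, and in 27.1% of endothelial-like wells, at 411 CPM. Slc6a13 had one in 28.2% of pericyte-like wells. Outside the vascular classes, Aldoc had a count in 98.9% of astrocyte-like, Dcx in 86.8% of neuroblast-like and Mbp in 100% of oligodendrocyte-like wells. In oligodendrocyte precursor-like wells Pdgfra had one in 66.7%, Mbp in 50% and Aldoc in 44.4%. Mbp stood at 2902 CPM there, against 14903 CPM in oligodendrocyte-like wells. Whether these 18 wells mix cell types was not tested, so levels in this class need not be those of precursors alone. Nes itself had a count in 61.7% of endothelial-like, 100% of pericyte-like and 57.4% of oligodendrocyte-like wells. A further 16 wells with 10045 to 11362 genes each, 2 per mouse, and 5 other wells stayed unnamed. These 16 held counts of 18 to 31 of the 34 genes each, against a median of 5 in the other kept wells.

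Well names are tied to mice by the labels in 2 ways. The map used here follows the well names written in the sample descriptions, and the other follows the sample titles. They give the same mouse for 96 of 768 wells and the same treatment for 50% of them. The class of a well and levels over all wells of a class do not use the map, whereas means ± SD over mice, percent shares of a level and every comparison of miR-132 with Control do. Under the titles the 16 wells with the most genes fell 4, 8 and 4 to mice 1, 2 and 6, and none to the others.

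The collagen IV pair, Col4a1 and Col4a2, encodes the chains of the commonest collagen IV trimer, and the genes lie head to head. Col4a1 spans chr8:11198423-11312826, minus strand, and Col4a2 spans chr8:11312805-11449287, plus strand (mm10, GENCODE M21), so that their first exons overlap by 22 bases. Their RefSeq promoter windows (GRCm38.p6, 250 bases before to 50 after each start) overlap as well, and the start sites lie 21 bases apart. The window of Col4a2, chr8:11312555.0-11312854.0 on the plus strand, is shown because part of it is promoter to both genes, and its 78 capitals are the bases that also fall in the window of Col4a1.
Col4a2 window: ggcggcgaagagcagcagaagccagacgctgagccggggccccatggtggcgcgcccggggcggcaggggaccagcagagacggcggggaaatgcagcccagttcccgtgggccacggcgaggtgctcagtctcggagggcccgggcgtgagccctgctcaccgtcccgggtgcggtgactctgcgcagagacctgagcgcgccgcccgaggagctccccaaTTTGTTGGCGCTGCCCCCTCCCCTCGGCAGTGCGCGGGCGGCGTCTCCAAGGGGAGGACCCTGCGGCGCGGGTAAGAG

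The windows of Spock2 (chr10:60106007-60106306, plus strand) and Vtn (chr11:78498870-78499169, plus strand) are shown as those of a gene higher, and a gene lower, in endothelial-like than in pericyte-like wells. Capitals mark a match to one of the motifs searched.
Spock2 window: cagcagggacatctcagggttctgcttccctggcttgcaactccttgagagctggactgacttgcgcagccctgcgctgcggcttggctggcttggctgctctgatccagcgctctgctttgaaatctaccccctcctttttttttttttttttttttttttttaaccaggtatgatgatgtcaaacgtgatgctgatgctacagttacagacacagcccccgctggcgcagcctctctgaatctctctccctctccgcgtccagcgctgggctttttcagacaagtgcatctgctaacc
Vtn window: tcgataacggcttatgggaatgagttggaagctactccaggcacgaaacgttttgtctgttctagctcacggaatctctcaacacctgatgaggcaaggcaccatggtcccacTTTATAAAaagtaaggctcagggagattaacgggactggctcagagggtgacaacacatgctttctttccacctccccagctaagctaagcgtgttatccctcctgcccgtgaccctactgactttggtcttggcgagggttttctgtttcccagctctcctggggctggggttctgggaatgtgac
Windows were found for 24 of the 34 genes, 27 windows in all. Both strands were searched for the TATA box letters TATAAA, for the GC box letters GGGCGG, for the ETS core letters CCGGAA and for the CCAAT box. The Spock2 window held none of the 4 motifs, and the Vtn window held the TATA letters on both strands in overlap. The GC box letters stood in 19 of the 27 windows (70.4%), among them both of the collagen IV pair, against 35.7% of all 32851 windows. TATA letters stood in 5 windows (18.5%, against 13.6%), the CCAAT box in 8 (29.6%, against 37.4%) and the ETS core in 2 (7.41%, against 14.9%). These are counts of windows and not of genes, and some windows are not separate. Tnc has 2 overlapping windows, both with TATA and GC box letters, and Agrn has 2 with GC box letters. The windows of Col4a1 and Col4a2 share a GC box match in their common bases. A median window of these genes had 12 CpG, against 7 over all windows. A match is a description of letters and no shown binding site.

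**Figure D1:**
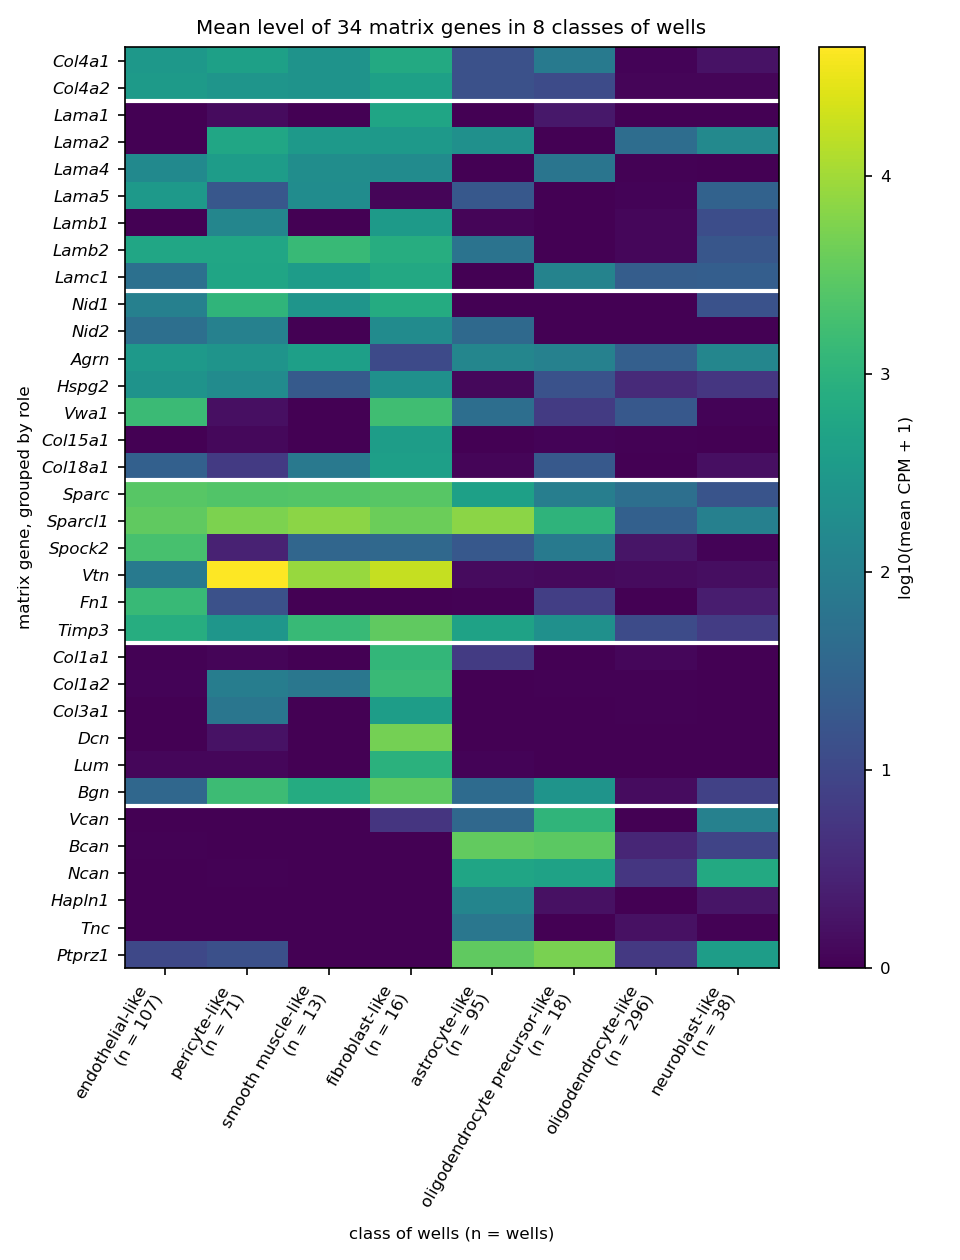
Mean level of each of the 34 matrix genes (rows, grouped by role, with white lines between groups) in each class of wells (columns, n = wells), as log10(mean CPM + 1). Fibrillar collagen genes are bright in the fibroblast-like column, Bcan and Ptprz1 of the brain hyaluronan matrix in the astrocyte-like and oligodendrocyte precursor-like columns, and the oligodendrocyte-like column is dark in most rows.

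Most of the basement membrane transcripts lay in the vascular classes. Levels are in CPM, each count scaled to the total of a well's counts, averaged over the wells of a class or, where an SD is given, over the means of mice with at least 3 wells of it. The class with the highest mean was fibroblast-like for 17 of the 34 genes, pericyte-like for 4, endothelial-like for 4, smooth muscle-like for 3, astrocyte-like for 3, oligodendrocyte precursor-like for 2 and neuroblast-like for 1. Within mice with at least 3 wells of both the leading and the next class, some leads did not hold. The fibroblast-like lead held in 1 of 4 mice for Sparc and in 2 of 4 for Col4a1, Lamc1, Nid2 and Vwa1. For Lamb1 it held in 3 of 4, and for Col4a2, Dcn, Lum, Col1a1, Col1a2, Col3a1, Col15a1 and Bgn in 4 of 4. For Lama1, Col18a1 and Timp3, 1 mouse had both classes. Among leads of other classes, that of Hspg2 held in 1 of 4 mice, Sparcl1 in 1 of 3 and Bcan in 2 of 4. Those of Lama4 and Lama5 held in 2 of 3, Nid1 and Ptprz1 in 3 of 4, Ncan in 5 of 7 and Tnc in 7 of 8. The leads of Lama2, Agrn, Spock2, Vtn, Fn1, Vcan and Hapln1 held in every such mouse. For Lamb2, 1 mouse had both classes. Fibroblast-like wells had counts of 22 of the 34 genes in at least 50% of wells, against 11 genes in each of the endothelial-like, pericyte-like and smooth muscle-like classes, 8 in astrocyte-like and 0 in oligodendrocyte-like wells. The 34 mean levels summed to 14240.1 CPM in endothelial-like, 59069.6 CPM in pericyte-like and 47164 CPM in fibroblast-like wells, and to 213.7 CPM in oligodendrocyte-like wells. The fibroblast-like values rest on 16 wells, and mice 1, 3 and 4 had none. All levels by class are descriptions, since the classes were set on other genes of the same wells.

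Col4a1 averaged 682 ± 483 CPM in fibroblast-like wells (SD, n = 4 mice with at least 3 such wells), 260.4 ± 138.2 CPM in endothelial-like and 448 ± 136.1 CPM in pericyte-like wells (SD, n = 8 mice each). Its fibroblast-like level was 874 and 1275 CPM in miR-132 mice 2 and 8, and 325.8 and 253.3 CPM in Control mice 5 and 7. Both miR-132 values lay above both Control values, with 3 or 4 wells behind each; of the 6718 genes counted in 10% or more of fibroblast-like wells, 30.1% had groups of these 4 mice that did not overlap. In fibroblast-like wells Col4a2 averaged 488 ± 234.8 CPM, with 324.9 ± 121.5 CPM in those of the endothelial-like and 225.98 ± 146.8 CPM in those of the pericyte-like class. The spreads overlapped between classes, though within mice Col4a1 was lower in endothelial-like than in pericyte-like wells in 7 of the 7 mice with at least 5 wells of each. Among wells with a count of either chain, both were counted in 51.8% of endothelial-like wells (44 wells with both, 17 with Col4a1 alone, 24 with Col4a2 alone) and 47.5% of pericyte-like wells (28 with both, 22 and 9 with a single chain). In astrocyte-like wells both chains were counted together in 1 of 95. A single-cell library misses transcripts, so a chain with no count need not be absent from the cell.

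Laminin chains were unevenly spread. Lama2, the alpha-2 chain, had a count in 1.87% of endothelial-like wells, and averaged 634 ± 396 CPM in pericyte-like wells and 194.2 ± 101.9 CPM in astrocyte-like wells (SD, n = 8 mice each). Lama5, the alpha-5 chain, went the other way, with 275.3 ± 153.8 CPM in endothelial-like wells (SD, n = 8 mice) and counts in 6 of 71 pericyte-like wells. Lama4, the alpha-4 chain, was in both, at 145.7 ± 52.2 CPM in endothelial-like and 364.1 ± 253.7 CPM in pericyte-like wells. Lama1, the alpha-1 chain, was at 602 ± 91.2 CPM in fibroblast-like wells (SD, n = 4 mice with at least 3 such wells), and the next class, oligodendrocyte precursor-like, stood at 0.98 CPM over its wells. Fibroblast-like wells thus held 99.4% of the Lama1 level summed over the named classes, with mice weighted equally.

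Of the shared chains, Lamb2, the beta-2 chain, was the highest laminin, at 1366 CPM over the 13 smooth muscle-like wells, 537 ± 247.97 CPM in endothelial-like and 533 ± 206.3 CPM in pericyte-like wells (SD, n = 8 mice each). Lamb1, the beta-1 chain, had no count in any endothelial-like well, which allows a share of up to 2.80%, and had counts in 16 of 71 pericyte-like wells. Lamc1, the gamma-1 chain, averaged 34.5 ± 37.7 CPM in endothelial-like wells and 531 ± 189.1 CPM in pericyte-like wells, with counts in 14.02% and 70.4% of wells. In endothelial-like wells Lamb2 had counts in 69.2% and Lama5 in 48.6% of wells, both above the share of Lamc1. Limits beside a count of 0 cover counting error only.

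Among the linkers, Nid1, whose product binds laminin and collagen IV, was highest in pericyte-like wells (1120.2 ± 395 CPM; SD, n = 8 mice), and its paralogue Nid2 reached 172.6 CPM in fibroblast-like wells, its highest class. Hspg2, which encodes perlecan, was at 265.2 ± 138.5 CPM in endothelial-like and 167.8 ± 134.8 CPM in pericyte-like wells, within each other's spread. Agrn, which encodes the heparan sulfate proteoglycan agrin, was spread over more classes: it had counts in 69.2% of smooth muscle-like, 58.9% of endothelial-like, 47.9% of pericyte-like, 44.7% of neuroblast-like, 34.7% of astrocyte-like and 17.2% of oligodendrocyte-like wells. Vwa1, which encodes a perlecan-binding protein, was at 1473 ± 452 CPM in endothelial-like wells (SD, n = 8 mice) and 1513 ± 927 CPM in fibroblast-like wells (SD, n = 4 mice with at least 3 such wells). Pericyte-like wells stood at 0.53 CPM of Vwa1, near 0. Col15a1 and Col18a1, collagens that carry glycosaminoglycan or heparan sulfate chains, were led by fibroblast-like wells, at 391 CPM for Col15a1 and 424 CPM for Col18a1.

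Matricellular genes gave the highest levels. Vtn, which encodes the adhesive glycoprotein vitronectin, averaged 43644 ± 3125 CPM in pericyte-like wells (SD, n = 8 mice) and 18446 ± 7137 CPM in fibroblast-like wells (SD, n = 4 mice with at least 3 such wells), and pericyte-like wells held 88.8% of its level. The pericyte marker Rgs5 had a count in 6.25% of the fibroblast-like wells, against 100% of the pericyte-like wells. Whether RNA of pericytes added to the Vtn counts of fibroblast-like wells was not tested. Per kilobase of exon Vtn was first among the 34 genes in pericyte-like wells, at a level of 22004 CPM per kb, ahead of Sparcl1 at 1836 and Sparc at 656 CPM per kb. Vtn stood at 80.8 CPM in endothelial-like wells, with a count in 17.8% of them, and at 0.38 CPM in astrocyte-like wells, with a count in 11.6%. Sparc, which encodes a collagen-binding glycoprotein, was level across the vascular classes, from 2483 CPM in pericyte-like to 2791 CPM in fibroblast-like wells. Sparcl1, which encodes the related protein hevin, averaged 6817 ± 1108 CPM in astrocyte-like wells (n = 8 mice) and 6841 ± 1363 CPM in smooth muscle-like wells (n = 3 mice).

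Fn1, which encodes fibronectin, and Spock2, which encodes the testican-2 proteoglycan, were the most endothelial of the genes. Endothelial-like wells held 99.2% of the Fn1 level and 97.95% of the Spock2 level. Spock2 averaged 1862 ± 529 CPM there, with counts in 98.1% of wells, and Fn1 averaged 1341 ± 527 CPM, with counts in 85.05% (SD, n = 8 mice each). No fibroblast-like well had a count of Fn1, which allows a share of up to 18.8% of such wells. Timp3, which encodes a matrix-bound inhibitor of metalloproteinases, was spread over fibroblast-like (3315 ± 1305 CPM; n = 4 mice), endothelial-like (697 ± 310.2 CPM; n = 8 mice) and astrocyte-like wells (435 ± 200.4 CPM; n = 8 mice).

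Fibrillar collagens and their partners were highest in the fibroblast-like wells. Dcn, which encodes decorin, a collagen-binding small proteoglycan, had a count in 16 of 16 of them, at 3772 and 6738 CPM in miR-132 mice 2 and 8, and 5664 and 3413 CPM in Control mice 5 and 7, and the next class stood at 0.69 CPM. The ranges of the mice overlapped. These wells held 99.9% of the Dcn, 99.6% of the Lum (lumican, of the same family) and 96.6% of the Col1a1 level. Col1a2, the alpha-2 chain of collagen I, and Col3a1, the collagen III chain, also had counts in 25.4% and 9.86% of pericyte-like wells, at 93.6 CPM for Col1a2 and 65.98 CPM for Col3a1. Bgn, which encodes the small proteoglycan biglycan, was shared, at 3105 CPM in fibroblast-like and 1554 CPM in pericyte-like wells.

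The brain hyaluronan matrix genes were led by classes outside the vasculature. Bcan, brevican, averaged 3431 ± 568 CPM in astrocyte-like wells (SD, n = 8 mice) and 2855 ± 222.6 CPM in oligodendrocyte precursor-like wells (SD, n = 4 mice with at least 3 such wells). It had a count in 0 of 71 pericyte-like wells, which allows up to 4.22%. Ptprz1, a receptor phosphatase whose secreted form is the proteoglycan phosphacan, was at 2137 and 4833 CPM in oligodendrocyte precursor-like wells of miR-132 mice 4 and 6 and at 9427 and 5992 CPM in those of Control mice 1 and 5. Both miR-132 values lay below both Control values, with groups that did not overlap for 28.5% of the 9947 genes counted in 10% or more of these wells. In astrocyte-like wells Ptprz1 averaged 3094 ± 591 CPM (SD, n = 8 mice). Vcan, versican, was led by oligodendrocyte precursor-like wells (1070.2 ± 214.02 CPM; n = 4 mice), and Ncan, neurocan, by neuroblast-like wells (698 ± 158.7 CPM; n = 7 mice), with 501 ± 203.4 CPM in astrocyte-like wells. Astrocyte-like wells held 99.6% of the level of Hapln1, a link protein, and 97.3% of that of Tnc, tenascin-C, at 129.9 ± 20.95 CPM for Hapln1 and 71.97 ± 78.9 CPM for Tnc.

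**Figure D2:**
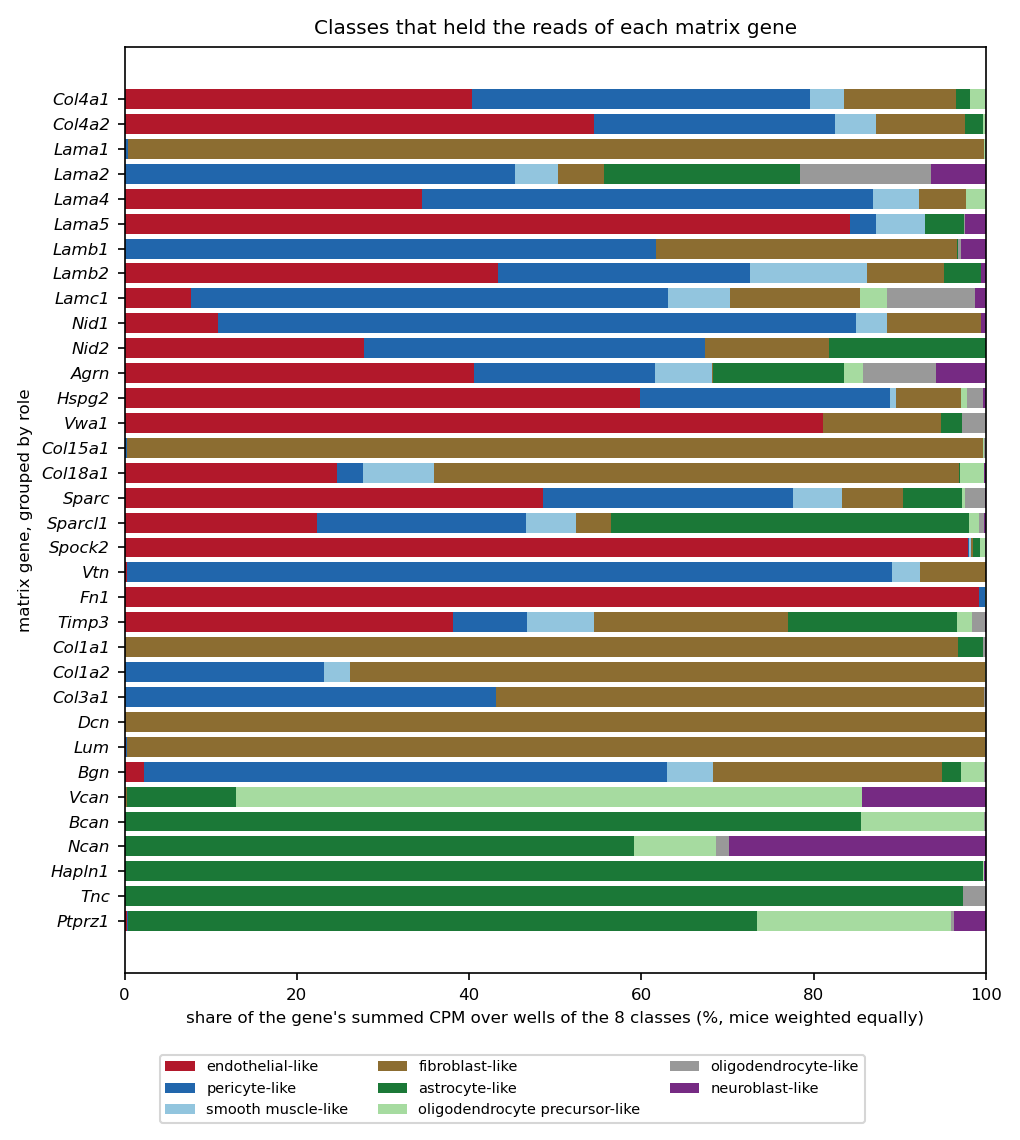
Share of each gene's level, summed over wells of the 8 named classes, that each class held (horizontal axis, percent, each mouse weighted equally by its mean per well; rows, genes grouped by role). Fn1 and Spock2 are almost wholly endothelial-like, Vtn is 88.8% pericyte-like, Dcn is 99.9% fibroblast-like and Hapln1 is 99.6% astrocyte-like, whereas Agrn and Timp3 are split over many classes.

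Endothelial-like and pericyte-like wells were then compared within mice, since both cell types border the same membrane. Counts were summed per class for the 7 mice with at least 5 wells of each (mice 2 to 8) and tested with edgeR's quasi-likelihood test with the mouse as a block, over 5845 genes, with Benjamini-Hochberg adjustment. Of the 34 genes, 19 were tested and 9 passed an adjusted p of 0.05, 4 higher in endothelial-like wells and 5 lower; over all genes tested, 6.6% were called higher and 4.09% lower. The other 15 genes were under the filter on low counts. Over the 19 the median log2 fold was -0.02, against 0.70 over all genes. The 34 genes took no part in setting the classes, but the genes that did come from the same wells, so the calls describe these classes. How many of the 5845 genes had groups without overlap, or all mice on the same side, was not counted. Such statements below describe single genes and do not mark them as unusual.

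Higher in endothelial-like wells were Spock2, Vwa1, Fn1 and Lama5. For Spock2 the lowest, median and highest mouse means were 1381, 1998 and 2748 CPM in endothelial-like wells and 0, 0 and 9.36 CPM in pericyte-like wells (adjusted p = 0.00044). Vwa1 had 837, 1475 and 2192 CPM in endothelial-like wells and 0, 0 and 1.77 CPM in pericyte-like wells (adjusted p = 3.4e-05). Fn1 had 366.4, 1312 and 2018 CPM in endothelial-like wells and 0, 0 and 102.8 CPM in pericyte-like wells (adjusted p = 0.00054). In each of the 7 mice these genes were higher in endothelial-like wells, and the groups did not overlap. Lama5 had 203.4, 284.4 and 491 CPM in endothelial-like wells and 0, 0 and 58.99 CPM in pericyte-like wells (adjusted p = 0.0081), also without overlap. Without the mouse block its adjusted p was 0.078. Fitted folds of genes near 0 in a class depend on the prior count and are not given.

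Lower in endothelial-like wells were Vtn, Lama2, Bgn, Nid1 and Lamc1. Vtn had 0, 2.56 and 393 CPM in endothelial-like wells and 40256, 42325 and 47731 CPM in pericyte-like wells as lowest, median and highest mouse means (adjusted p = 0.0029). Lama2 had 0, 0 and 0.16 CPM in endothelial-like wells and 177.8, 568 and 1469.6 CPM in pericyte-like wells (adjusted p = 2.2e-05). Bgn had 0, 0.28 and 225.3 CPM in endothelial-like wells and 659, 1274 and 2184 CPM in pericyte-like wells (adjusted p = 0.0092). All 7 mice had these genes lower in endothelial-like wells, without overlap. Nid1 had a log2 fold of -4.25 ± 1.20 (SE, adjusted p = 0.045), with a median mouse at 153.98 CPM in endothelial-like and 1040.5 CPM in pericyte-like wells. Lamc1 had a log2 fold of -4.05 ± 1.06 (SE, adjusted p = 0.032), with a median mouse at 33.1 CPM in endothelial-like and 473 CPM in pericyte-like wells. The Nid1 call was lost on leaving out each of mice 2 to 7 in turn (adjusted p 0.064 to 0.11), and that of Lamc1 on leaving out mouse 2, 4, 5, 7 or 8 (0.067 to 0.077). Neither gene had overlapping groups in the full data.

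The other 10 tested genes did not pass. Among them were both collagen IV chains, with log2 folds of -0.41 ± 0.44 for Col4a1 and 0.96 ± 0.62 for Col4a2 (SE). Col4a1 had 94.6, 323.4 and 430.5 CPM in endothelial-like wells and 287.2, 384.8 and 665 CPM in pericyte-like wells as lowest, median and highest mouse means, and was lower in endothelial-like wells of 7 of 7 mice, although the groups overlapped. Lamb2 was at -0.02 ± 0.45, Lama4 at -0.67 ± 0.59, Sparc at 0.36 ± 0.28, Agrn at 0.45 ± 0.79, Hspg2 at 1.32 ± 0.88 and Nid2 at -0.54 ± 1.83. Sparcl1 was at 2949 to 3932 CPM in endothelial-like and 4825 to 6626 CPM in pericyte-like wells, without overlap, with a log2 fold of -0.62 ± 0.23 (SE, adjusted p = 0.14). Timp3 was at 349.3 to 1206 CPM in endothelial-like and 56.4 to 560.4 CPM in pericyte-like wells, and higher in endothelial-like wells of 7 of 7 mice, with a log2 fold of 2.02 ± 0.67 (SE, adjusted p = 0.093 in edgeR and 0.015 in DESeq2). A missed threshold does not show that the classes hold these genes alike.

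**Figure D3:**
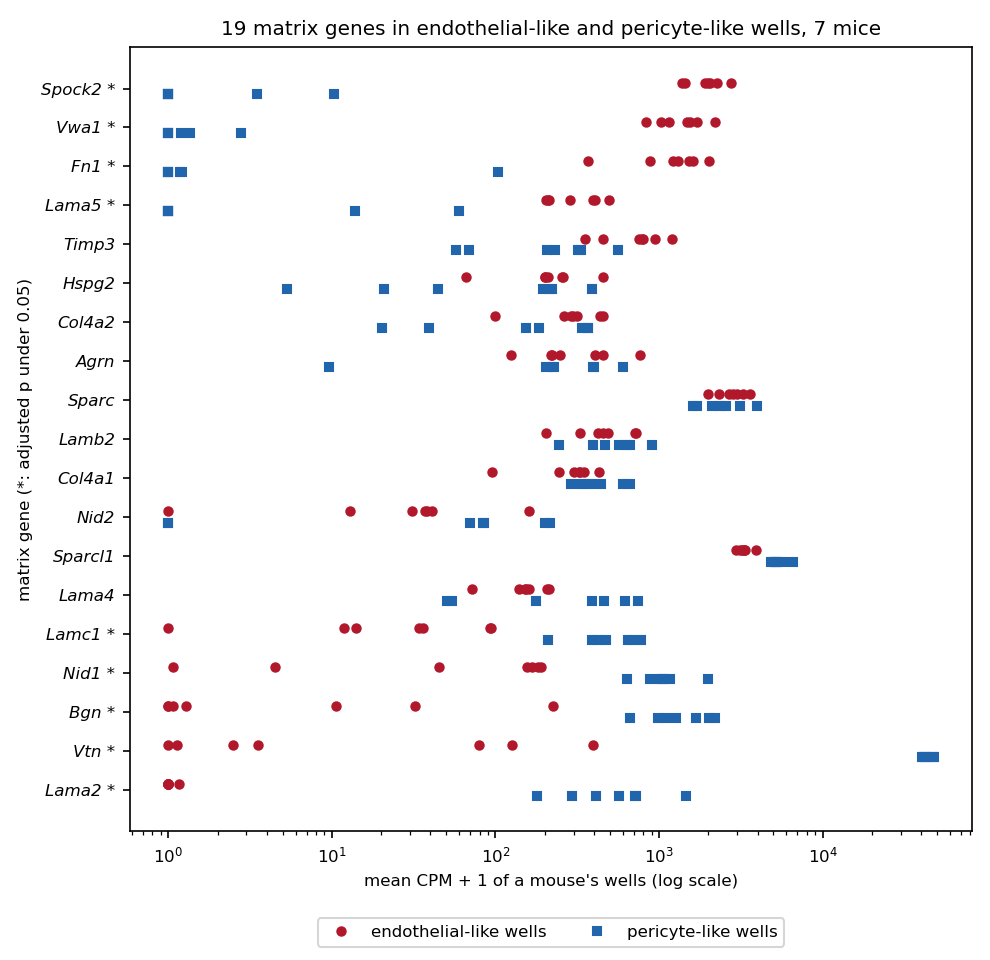
Mean CPM + 1 of a mouse's wells (horizontal axis, log scale) for the 19 tested genes (rows, ordered by fitted fold; an asterisk marks an adjusted p under 0.05), with red circles for endothelial-like and blue squares for pericyte-like wells of 7 mice. Spock2, Vwa1, Fn1 and Lama5 sit far to the right in endothelial-like wells and Vtn, Lama2, Bgn, Nid1 and Lamc1 in pericyte-like wells, whereas Sparc, Lamb2 and Col4a1 overlap.

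Receptors and assembly genes of the same pathways were read from the same fit. Of 27 matrix receptor genes 13 were tested and 7 called, 1 higher in endothelial-like wells and 6 lower. Itga6, the laminin receptor chain alpha-6, had a median mouse at 284.5 CPM in endothelial-like wells and 0 CPM in pericyte-like wells of all 7 mice. Itga7, the laminin receptor chain alpha-7, had 0 CPM in endothelial-like wells of all 7 mice and a median mouse at 286.3 CPM in pericyte-like wells. Sdc2, a syndecan, was at a median of 0 CPM in endothelial-like and 782 CPM in pericyte-like wells. Of 23 other basement membrane genes 6 were tested and 4 called, 3 of them higher in endothelial-like wells: Hmcn1, a hemicentin, Mmrn2, a multimerin, and Egfl7, a vascular EGF-domain protein, had medians of 361.2, 304.3 and 1399 CPM there and of 0 CPM in pericyte-like wells.

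Of 19 collagen assembly genes 10 were tested and 1 was called: Pcolce, an enhancer of procollagen processing, with medians of 0 CPM in endothelial-like and 315.4 CPM in pericyte-like wells (adjusted p = 0.0022, or 0.15 without the mouse block). Proteases and their inhibitors numbered 23, of which 10 were tested and 0 called by edgeR's quasi-likelihood test, with 3 at an unadjusted p under 0.05. Of 27 other fibrillar and elastic matrix genes 5 were tested and 2 called. Ltbp4, which encodes a latent TGF-beta binding protein, had a median of 1496 CPM in endothelial-like and 0 CPM in pericyte-like wells (adjusted p = 0.0068, or 0.051 without the mouse block). Ogn, osteoglycin, had a median of 0 CPM in endothelial-like and 266.5 CPM in pericyte-like wells. Of 13 other brain matrix genes 2 were tested and 1 was called, Cspg4, the NG2 proteoglycan and also a known pericyte marker. It was at 0.17 CPM in endothelial-like and 1048 CPM in pericyte-like wells. Cspg4 was also among the naming markers of the oligodendrocyte precursor-like class.

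The comparison the study was built for is the miR-132 mimic against the control oligonucleotide. MicroRNAs pair with target transcripts mainly through the seed (bases 2 to 8, in capitals), and the mature mouse sequence (RefSeq, GRCm38.p6, chr11:75173723-75173744, plus strand) is shown so that sites in the matrix genes can be read against it. The sequence of the mimic itself was not used here.
mmu-miR-132-3p: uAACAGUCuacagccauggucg
The 7-base complement of the seed, GACTGTT, stood in the longest annotated 3′ UTR of 4 of the 34 genes (11.8%), against 14.3% of 8156 genes tested that have one. The median UTR was 962.5 bases for the 34 and 1303 for the genes tested. The 34 were counted whether tested or not, so the shares and the medians are over unlike sets. The sites lay in Nid1, Col1a1, Vcan and Hapln1. Those of Nid1 (position 1208 of the UTR) and Hapln1 (position 2106) are shown with the match in capitals, since the Hapln1 site is followed by A, the longer form of the match.
Nid1 site: atagtttgaggGACTGTTgctgc
Hapln1 site: atctccaaagtGACTGTTAgctg
Among these 4 genes Nid1 alone passed the filter on low counts, with a log2 fold of 0.13 ± 0.35 (SE) between miR-132 and Control mice. A match is a run of letters and not a shown target.

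Over all kept wells, 21 of the 34 genes passed the filter and were tested on counts summed per mouse (edgeR's quasi-likelihood test, sort date as covariate, 8823 genes). The 13 that did not pass were Lama1, Lamb1, Nid2, Col15a1, Col18a1, Dcn, Lum, Col1a1, Col1a2, Col3a1, Tnc, Vcan and Hapln1. None of the 21 passed an adjusted p of 0.05, as was so for all genes tested (0%). At an unadjusted p under 0.05 there were 5, all higher in miR-132 mice: Agrn, Vwa1, Spock2, Fn1 and Timp3; over all genes 4.48% had such a p. Log2 folds were above 0 for 15 of the 21, with a median of 0.24, against 0.00 over all genes. The median was 0.10 without Control mouse 5 and 0.57 without Control mouse 7, when 9 genes had an unadjusted p under 0.05. In sums over wells, fewer cells of a type and less RNA per cell cannot be told apart. The p-values measure the spread between mice under the map used.

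Agrn (chr4:156165290-156197488, minus strand) had 148.1, 164.1, 156.9 and 220.6 CPM in miR-132 mice 2, 4, 6 and 8, and 76.8, 61.1, 107.8 and 97.3 CPM in Control mice 1, 3, 5 and 7. Every miR-132 mouse was above every Control mouse, the only case among the 21; over all genes 2.28% had groups that did not overlap. Its log2 fold was 1.00 ± 0.22 (SE, unadjusted p = 0.00071, adjusted p = 0.83), with log2 differences of 1.17 between the means of mice sorted on day 17 and 0.87 on day 19.

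Vwa1 (chr4:155768149-155774698, minus strand) had 298.3, 293.4, 482 and 487 CPM in miR-132 mice 2, 4, 6 and 8, and 92.1, 83.4, 212.6 and 327.7 CPM in Control mice 1, 3, 5 and 7. The groups overlapped only through Control mouse 7. Its log2 fold was 1.19 ± 0.23 (SE, unadjusted p = 0.00031, adjusted p = 0.83), with log2 differences of 1.74 between the means of mice sorted on day 17 and 0.84 on day 19. Spock2 (chr10:60106219-60135198, plus strand) had 178.2, 404, 557 and 699 CPM in miR-132 mice 2, 4, 6 and 8, and 71.6, 156.7, 212.6 and 325.5 CPM in Control mice 1, 3, 5 and 7. The groups overlapped, miR-132 mouse 2 being the lowest of its group and Control mouse 7 the highest of its own. Its log2 fold was 1.38 ± 0.30 (SE, unadjusted p = 0.00067, adjusted p = 0.83), with log2 differences of 1.34 between the means of mice sorted on day 17 and 1.22 on day 19.

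Fn1 (chr1:71585520-71653200, minus strand) had 176.6, 156.3, 444 and 387 CPM in miR-132 mice 2, 4, 6 and 8, and 82.3, 30.4, 175.1 and 289.6 CPM in Control mice 1, 3, 5 and 7. The groups overlapped, and in both the mice sorted on day 19 were above those of day 17. Its log2 fold was 0.99 ± 0.31 (SE, unadjusted p = 0.0083, adjusted p = 1.00), with log2 differences of 1.54 between the means of mice sorted on day 17 and 0.84 on day 19. Timp3 (chr10:86300372-86349506, plus strand) had 365.9, 212.4, 442 and 613 CPM in miR-132 mice 2, 4, 6 and 8, and 145.1, 118.3, 307.6 and 458 CPM in Control mice 1, 3, 5 and 7. Again the groups overlapped, and within either group the mice of day 19 were the higher ones. Its log2 fold was 0.74 ± 0.28 (SE, unadjusted p = 0.023, adjusted p = 1.00), with log2 differences of 1.13 between the means of mice sorted on day 17 and 0.46 on day 19. Without strand, reads of Timp3 cannot be told from those of Syn3 on the other strand, which shares 21.3% of its exonic bases, nor those of Vwa1 from Gm26840, which shares 20.98%.

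By the description map each miR-132 mouse shared its sort date and the first letters of its well names (L7 or L8) with 1 Control mouse, which gives the pairs 2 and 1, 4 and 3, 6 and 5, and 8 and 7. Agrn, Vwa1, Spock2, Fn1, Timp3, Lamb2 and Sparcl1 were higher in the miR-132 mouse of 4 of 4 pairs, against 7.48% of all genes tested. Lamc1 was lower in the miR-132 mouse of 4 of 4 pairs, against 5.8%. With these pairs as a block, a fit chosen after seeing the data, edgeR called 0 genes, 456 of all genes and 6 of the 21 had an unadjusted p under 0.05, and the log2 fold was 0.98 ± 0.22 for Agrn, 1.20 ± 0.23 for Vwa1 and 1.35 ± 0.20 for Spock2 (SE, adjusted p = 0.80, 0.79 and 0.64).

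**Figure D4:**
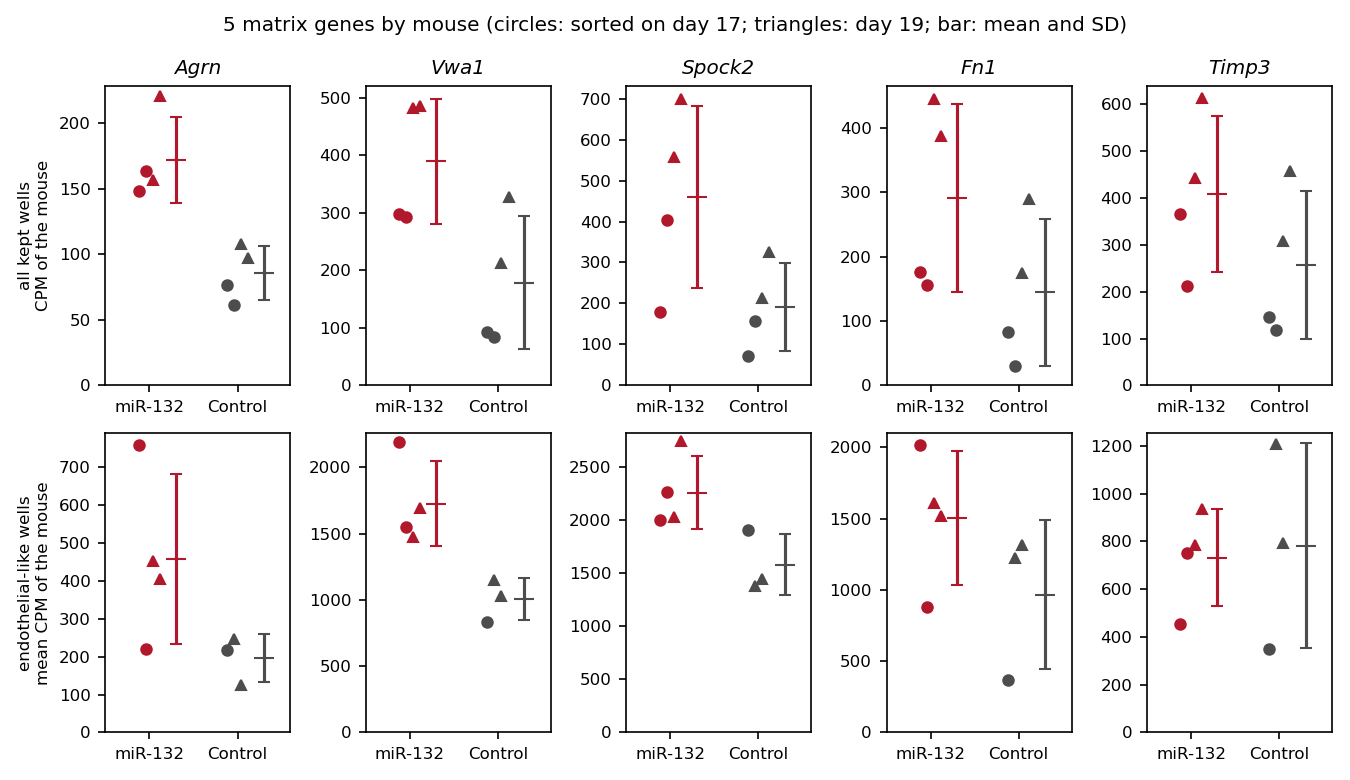
CPM of 5 matrix genes in each mouse, over all kept wells (top row) and as mean CPM over endothelial-like wells of mice with at least 5 of them (bottom row), with miR-132 mice in red and Control mice in grey; circles are mice sorted on day 17, triangles on day 19, and bars are mean and SD. In the top row Agrn is 148.1 to 220.6 CPM in miR-132 mice and 61.1 to 107.8 CPM in Control mice, while the other 4 genes overlap.

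The mix of wells differed from mouse to mouse, and over both sort dates together the groups overlapped in it. Endothelial-like wells, which held most of the Spock2 and Fn1 level, were 19.5 ± 8.31% of a miR-132 mouse's kept wells and 12.1 ± 7.65% of a Control mouse's (SD, n = 4 each; two-sided exact permutation p = 0.26, adjusted over 8 classes 0.78). That permutation took no account of sort date or pair. The endothelial-like share was 8.70, 17.3, 26.7 and 25.3% in miR-132 mice 2, 4, 6 and 8. In Control mice 1, 3, 5 and 7 it was 4.49, 8.0, 14.1 and 21.95%. It was thus higher in the miR-132 mouse of every pair, and the groups did not overlap within either sort date. No test of the shares was run by pair or within a date, where so few mice can separate by chance. The 12 endothelial naming markers summed to 3969 to 11207 CPM in miR-132 mice and 2199 to 9743 CPM in Control mice. The 9 pericyte markers summed to 1718 to 3429 CPM in miR-132 mice and 1522 to 5812 CPM in Control mice. Control mouse 7, often the highest Control mouse, had 21.95% endothelial-like and 21.95% pericyte-like wells, the largest shares among Control mice. With the endothelial-like share as an added covariate, Spock2 had a log2 fold of 0.55 ± 0.33, Agrn 1.06 ± 0.35, Vwa1 1.10 ± 0.35, Fn1 1.13 ± 0.48 and Timp3 1.00 ± 0.39 (SE), and 4 of the 21 genes had an unadjusted p under 0.05. Without the 16 wells of many genes the folds were 1.41 ± 0.31 for Spock2, 1.01 ± 0.22 for Agrn and 1.20 ± 0.24 for Vwa1 (SE).

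Within endothelial-like wells alone (7 mice, 5799 genes, edgeR, 0% called) the folds of the 5 genes were again above 0. Agrn averaged 759, 219.1, 452 and 404 CPM in miR-132 mice 2, 4, 6 and 8, and 216.7, 247.4 and 124.1 CPM in Control mice 3, 5 and 7. The groups overlapped, and the log2 fold was 1.16 ± 0.47 (SE, unadjusted p = 0.038). Vwa1 averaged 2192, 1547, 1475 and 1693 CPM in miR-132 mice 2, 4, 6 and 8, and 837, 1151 and 1029 CPM in Control mice 3, 5 and 7. These groups did not overlap, as was so for 6.12% of the 5799 genes, and the log2 fold was 0.81 ± 0.26 (SE, unadjusted p = 0.013). Spock2 averaged 1998, 2261, 2033 and 2748 CPM in miR-132 mice 2, 4, 6 and 8, and 1912, 1381 and 1449 CPM in Control mice 3, 5 and 7. Here too the groups did not overlap, and the log2 fold was 0.68 ± 0.22 (SE, unadjusted p = 0.014). Fn1 was at 0.81 ± 0.42 and Timp3 at 0.14 ± 0.33. Of the 34 genes 17 were tested, and 2 others had an unadjusted p under 0.05, Lamb2 (0.70 ± 0.29, SE) and Vtn, which stood at 0 to 393 CPM in these 7 mice. That makes 5 of 17, against 1.97% of all genes in this fit. Leaving out a mouse left 1 such gene without Control mouse 3 or miR-132 mouse 8, 2 without Control mouse 7, 3 without mouse 2, 5 or 6 and 4 without mouse 4. All adjusted p of the 34 genes rounded to 1.00, and the median log2 fold of all genes in this fit was 0.30, against which these folds are to be read. Control mouse 1, with 4 endothelial-like wells, was not in the fit and had 95.5 CPM of Agrn, 1861 CPM of Vwa1 and 1115 CPM of Spock2. With mouse 1 counted, the groups overlap for Vwa1 and do not for Spock2.

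In oligodendrocyte-like, astrocyte-like and pericyte-like wells 0% of all genes and 0 of the 34 were called by edgeR, over 7420, 7480 and 5105 genes. Of the 34, 17 were tested in pericyte-like wells and 0 had an unadjusted p under 0.05, against 0.686% of all genes. Vtn there had a log2 fold of -0.16 ± 0.10, Nid1 of 0.24 ± 0.38 and Col4a1 of -0.24 ± 0.51 (SE). Astrocyte-like wells, with 18 tested and 0 at an unadjusted p under 0.05 (1.71% of all genes), gave -0.30 ± 0.22 for Bcan, -0.07 ± 0.28 for Ptprz1 and 0.05 ± 0.54 for Hapln1. In oligodendrocyte-like wells 7 were tested and 1 had an unadjusted p under 0.05, Lama2, with -0.90 ± 0.37 (p = 0.034, adjusted p = 1.00), against 2.96% of all genes at such a p.

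The leading genes of the remaining roles did not pass. Vtn had 3607, 3309.8, 5094 and 7398 CPM in miR-132 mice 2, 4, 6 and 8, and 3847, 2843, 5151 and 11596 CPM in Control mice 1, 3, 5 and 7. Its groups overlapped, Control mouse 7 was the highest of all, and the log2 fold was -0.21 ± 0.25 (SE). Col4a1 had 78.1, 53.9, 165.5 and 237.6 CPM in miR-132 mice 2, 4, 6 and 8, and 76.3, 70.99, 106.5 and 166.8 CPM in Control mice 1, 3, 5 and 7. The Control values lay inside the range of the miR-132 values, and the log2 fold was 0.24 ± 0.26 (SE). Ptprz1 had 981, 454, 522 and 798 CPM in miR-132 mice 2, 4, 6 and 8, and 608, 671, 453 and 619 CPM in Control mice 1, 3, 5 and 7. Here miR-132 mouse 2 was the highest, the groups overlapped, and the log2 fold was 0.12 ± 0.28 (SE). Lamb2 had 126.5, 215.8, 288.2 and 346.9 CPM in miR-132 mice 2, 4, 6 and 8, and 112.9, 61.7, 121.7 and 335.8 CPM in Control mice 1, 3, 5 and 7. Its groups overlapped through Control mouse 7, and the log2 fold was 0.73 ± 0.35 (SE, unadjusted p = 0.061). Dcn, under the filter, had 125.8, 2.81, 100.4 and 222.1 CPM in miR-132 mice 2, 4, 6 and 8, and 0.79, 0, 266.5 and 172.2 CPM in Control mice 1, 3, 5 and 7. It was low in mice 1, 3 and 4, which had no fibroblast-like wells. The other 12 tested genes had log2 folds between -0.45 (Lamc1) and 0.40 (Lama5).

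Most folds of the matrix genes turned round under the other map of wells to mice. With wells assigned by sample titles, Agrn had a log2 fold of -0.47 ± 0.23, Vwa1 of -0.47 ± 0.23, Spock2 of -0.47 ± 0.20, Fn1 of -0.28 ± 0.21 and Timp3 of 0.01 ± 0.15 (SE). Under that map 4 of the 21 genes were above 0, 3 had an unadjusted p under 0.05, and the median was -0.25. Which map holds was not tested, so the direction of the miR-132 comparison depends on it. By DESeq2 on the description map, Agrn, Vwa1 and Spock2 passed with adjusted p of 0.022, 0.014 and 0.018, among 15 genes called; DESeq2 gave no adjusted p to 5474 of the 8823 genes, so its adjustment ran over fewer genes than that of edgeR.

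**Figure D5:**
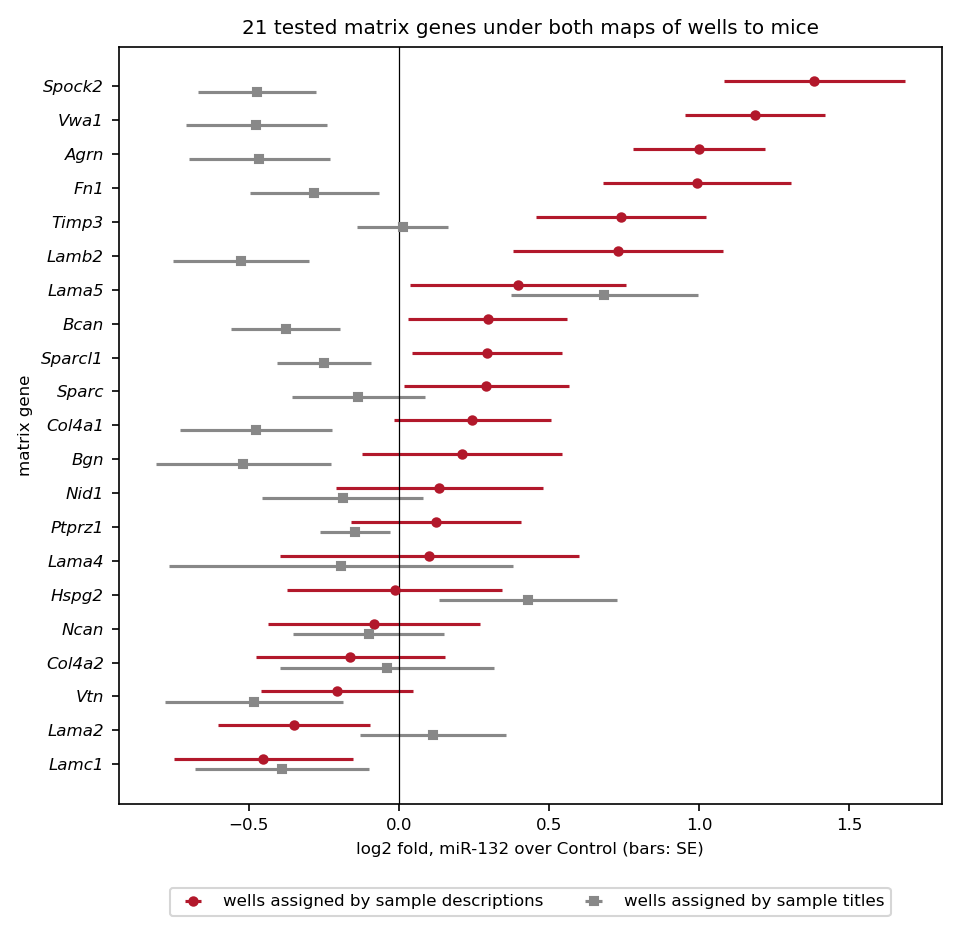
Log2 fold of miR-132 over Control for the 21 tested genes (rows) over all kept wells, with red circles for wells assigned by sample descriptions and grey squares for wells assigned by sample titles; bars are SE. Agrn, Vwa1, Spock2, Fn1 and Timp3 lie between 0.74 and 1.38 under the descriptions and between -0.47 and 0.01 under the titles.

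Genes of the related lists were tested in the same fit, and 0 were called by edgeR; the smallest adjusted p was 0.83, and over all genes tested 50.1% had a fold above 0. Of 27 matrix receptors 17 were tested, 10 had a fold above 0 and 0 had an unadjusted p under 0.05. The smallest p among them belonged to the syndecan gene Sdc4 and the integrin chains Itga4 and Itga6, with log2 folds of 0.58 ± 0.37, 1.00 ± 0.69 and 0.43 ± 0.32 (SE). Of 23 other basement membrane genes 4 were tested and 4 were above 0, led in order of p by Egfl7 (0.59 ± 0.30), Hmcn1 (0.43 ± 0.33) and Mmrn2 (0.28 ± 0.37). Collagen assembly genes gave 11 tested and 8 above 0, led by Crtap, of the prolyl 3-hydroxylation complex (0.87 ± 0.31, unadjusted p = 0.015), the procollagen protease gene Bmp1 (0.43 ± 0.25) and the lysyl hydroxylase gene Plod3 (-0.57 ± 0.34).

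Among 23 proteases and inhibitors 14 were tested and 8 were above 0, led by the protease inhibitor gene Serpine2 (0.51 ± 0.23, unadjusted p = 0.045), the serine protease gene Htra1 (0.50 ± 0.26) and Timp4 (0.69 ± 0.43). Other fibrillar and elastic matrix genes gave 6 tested and 5 above 0, led by Ltbp4 (1.19 ± 0.30, unadjusted p = 0.0019), Igfbp7 (0.79 ± 0.41) and Ltbp1 (0.60 ± 0.48). Of 13 other brain matrix genes 6 were tested and 1 was above 0, led by Cspg4 (-0.58 ± 0.26, unadjusted p = 0.047), the link protein gene Hapln2 (-0.45 ± 0.24) and Omg, which encodes a myelin glycoprotein (-0.34 ± 0.20).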

How the data were processed

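The authors deposited whole-number read counts per gene for 768 wells in 1 table. Per the labels' protocols, libraries were Smart-seq2 from sorted single cells, without molecular identifiers or strand. Per the submitters' processing notes, the tools were STAR, Subread, featureCounts 1.5.1, FastQC and Seurat 2.3.1, and the build was mm10; settings are not given in the sources used here.

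The 34 genes, the related lists and the markers were chosen with earlier results of these data known. Wells were assigned to mice by sample descriptions, with 0 columns unused. Kept wells had at least 50000 counts and 1000 genes and summed to 43889169 to 66897586 counts per mouse. Leiden clusters (scanpy 1.11.5, 2000 variable genes without the 34, 20 components, 15 neighbours, resolution 1) were named from the marker lists; leading genes were ranked by differences of mean log2(CPM + 1), a choice made after ranks by mean CPM were seen to rest on a few wells. No doublet caller was run, and classes rebuilt this way may differ from the authors' own.

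Counts summed per mouse were tested with edgeR 4.0.16 (R 4.3.3; TMM factors; two-sided; Benjamini-Hochberg over all genes tested; threshold 0.05). A gene was tested if at least 10% of the summed wells had a count and filterByExpr kept it. The procedure was run on simulated counts, with recovery of the sign of large changes as the condition to pass. How often folds of the size reported for the miR-132 comparison would be called is not given here. SE is the log2 fold divided by the square root of F. A class fit took mice with at least 5 wells of the class, and a class mean per mouse at least 3. Endothelial-like and pericyte-like sums come from the same mice, so the mouse was a block there. DESeq2 1.42.0, RLE factors, no filter, other covariates, a limit of 15% mitochondrial counts, the title map, leaving out each mouse and, chosen after seeing the data, a block of sort date and well-name prefix were alternatives. Shares of wells were compared by exact permutation over mice. Beside a count of 0 the limit is 3 wells of the total. Values per mouse are given for genes with an unadjusted p under 0.05 over all kept wells and for the highest gene of each role; from the related lists, the 3 genes with the smallest p there and up to 3 called genes with the largest fold between endothelial-like and pericyte-like wells are named. Promoter and microRNA sequences are from RefSeq (GRCm38.p6), and 3′ UTR sites and positions from GENCODE M21.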

Additional observations from a re-analysis of the deposited data

Results flagged for a closer look

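In 4 of 42 groups of 4 mice (21 tested genes, both groups) 1 mouse lay apart, its gap to the nearest mouse being past Dixon's critical value as a share of the group's range; chance gives about 1 in 20 such groups. Lama4, the laminin alpha-4 chain, stood at 153.801 CPM over all kept wells of miR-132 mouse 6, with the other miR-132 mice at 47.9 to 52.2 CPM (gap 0.96 of the range). Control mouse 7 stood apart for 3 genes. It had 304.855 CPM of Nid1, with the other Control mice at 79.9 to 114.3 CPM (gap 0.847), 614.347 CPM of Bgn, with the others at 119.04 to 193.3 CPM (gap 0.85), and 3622.811 CPM of Sparcl1, with the others at 1453 to 1786 CPM (gap 0.847). All 3 genes had a lower median mouse in endothelial-like than in pericyte-like wells, and mouse 7 had 21.95% pericyte-like wells, against 6.67 to 8.99% in the other Control mice. The part of that share in these values was not tested.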

How the results depend on the processing

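Across the miR-132 comparison over all kept wells, leaving out each mouse in turn turned no fold round by more than its SE and called none of the named genes. By titles, log2 folds of the other sign, where either value passed its SE, were Col4a1 -0.48, Lama2 0.11, Lamb2 -0.53, Agrn -0.47, Hspg2 0.43, Vwa1 -0.475, Spock2 -0.47, Sparc -0.14, Sparcl1 -0.25, Fn1 -0.28, Bcan -0.38, Ptprz1 -0.15, Bgn -0.52, Sdc4 -0.23, Itga4 -0.72, Egfl7 -0.36, Hmcn1 -0.0587, Crtap -0.65, Bmp1 -0.25, Timp4 -0.12, Ltbp4 -0.235, Igfbp7 -0.39, Ltbp1 -0.0930, Hapln2 0.40 and Omg 0.17 over all kept wells, and Agrn -0.47, Vwa1 -0.32, Spock2 -0.295, Fn1 -0.20 and Lamb2 -0.20 in endothelial-like wells. The difference in share of wells, miR-132 minus Control, was -1.93 percentage points for endothelial-like, -1.76 for astrocyte-like and -0.66 for oligodendrocyte precursor-like wells by titles, against 7.37, 5.15 and 0.60 by descriptions. With the endothelial-like share as covariate the folds of other sign were Lama5 -0.10, Lamb2 -0.0083, Sparc -0.51, Igfbp7 -0.22, Ltbp1 -0.24 and Hapln2 0.18. In the 16 wells of many genes alone, a setting chosen after seeing the data, they were Col4a2 1.12, Lama2 0.33, Lamc1 1.06, Hspg2 1.63, Bcan -0.29, Itga4 -0.67, Plod3 0.73, Timp4 -0.58, Ltbp1 -1.36 and Cspg4 0.44. The cause was not tested.

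DESeq2 called 15 genes over all kept wells, 3 in oligodendrocyte-like, 31 in astrocyte-like, 33 in endothelial-like and 15 in pericyte-like wells, where edgeR called 0 in each; with no filter on low counts edgeR called 84, 19, 2, 8 and 1 in the same order. Over all kept wells, calls among the genes named were Agrn (adjusted p = 0.022), Vwa1 (0.014) and Spock2 (0.018) by DESeq2, and Vwa1 (0.00094), Spock2 (1.4e-05), Fn1 (0.031) and Ltbp4 (0.00097) with no filter, which also called Dcn and Col1a2, genes of a few fibroblast-like wells. Between endothelial-like and pericyte-like wells DESeq2 called 1672 genes and edgeR 625. Timp3 was called by DESeq2 (log2 fold 2.02, adjusted p = 0.015). In edgeR without the replicate block of mice, Lama5 (adjusted p = 0.078), Pcolce (0.15) and Ltbp4 (0.051) were not called. Leaving out single mice moved the log2 fold of Nid1 between -4.74 and -3.59 and that of Lamc1 between -4.43 and -3.54. Mouse numbers pair no miR-132 with a Control mouse. With the replicate block of sort date and well-name prefix, chosen after seeing the data, edgeR called 0 genes, as without it. Deviations of paired mice from their group means correlated at 0.079 to 0.241 over genes. Those of a miR-132 and a Control mouse of different pairs correlated at -0.205 to 0.09, so the ranges overlapped. The number of wells limits the rare classes, with 13 smooth muscle-like and 16 fibroblast-like wells.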
